A study of Mus musculus with 26 samples.

Results

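The genes described are 5 C-type lectin receptors of myeloid cells, Clec5a, Clec7a, Clec4d, Clec4e and Clec4n, and the CD300 family receptor Cd300lf, which make up 6 of the 12394 genes measured. They were chosen by name with earlier results of these same arrays known, so measured values stood behind the choice and any comparison below may have been among them. Their values and calls are therefore a description, and nothing is supported with them. For each gene the values are those of the probe set with 1 gene symbol that had the highest mean log2 value over the arrays. Gene expression was measured on Affymetrix arrays with total RNA of whole left lungs of male mice aged 6 to 8 weeks. Il10-/- mice (B6.129P2-Il10tm1Cgn/J), which carry a disrupted gene of the anti-inflammatory cytokine interleukin 10, and Il10+/+ mice (C57BL/6) breathed 0.3 ppm ozone (O3) or filtered air for 23.5 hr per day. The groups were Il10-/- mice in air (n = 4), 24 hr of O3 (n = 2), 48 hr of O3 (n = 3) and 72 hr of O3 (n = 3), and Il10+/+ mice in air (n = 4), 24 hr of O3 (n = 3), 48 hr of O3 (n = 3) and 72 hr of O3 (n = 3). Each air group joined 2 arrays of 24 hr and 2 of 48 hr, and 72 hr of O3 had no air arrays of its own. The comparisons address whether O3 changed these receptor genes in the lung and whether the lack of Il10 altered that change.

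C-type lectin receptors sit on the surface of macrophages, monocytes, neutrophils and dendritic cells and recognise sugars and lipids of fungi and bacteria, or molecules of damaged host cells. Clec7a (Dectin-1) signals through a motif in its own tail, whereas Clec4d (MCL), Clec4e (Mincle) and Clec4n (Dectin-2) signal through the adaptor encoded by Fcer1g, and Clec5a (MDL-1) through the one encoded by Tyrobp. All of these lead to the kinase Syk and the adaptor Card9 and to the release of cytokines, whereas Cd300lf (CLM-1) binds lipids of cell membranes and carries inhibitory motifs that recruit phosphatases such as Ptpn6. In whole lung, more cells of a type and more RNA per cell cannot be told apart.

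The log2 values had medians between 6.54 and 6.68 per array, and Sftpc, a surfactant gene of alveolar type 2 cells, read 14.29 to 14.48 on all 25 arrays used. The array of Il10-/- O3 24 hr replicate 2 had an Sftpc value of 6.36 and was left out, which left 2 arrays in that group. Il10 itself read 6.29 to 7.71 on 11 of the 12 arrays of Il10-/- mice and 3.92 to 4.25 on the 13 arrays of Il10+/+ mice. The position of this probe set relative to the disrupted part of the gene is not given in the sources used here, so it does not check the loss of the transcript. The array labelled Il10-/- air 48 hr replicate 1 read 3.87, below every other Il10-/- array and beside the Il10+/+ arrays, and results of the 6 genes and of Il10 that change without it are named below.

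The genes of Clec4n, Clec4d and Clec4e follow one another, in this order, among the protein-coding genes of chromosome 6, where Clec5a and Clec7a also lie, and Cd300lf lies on chromosome 11. Promoter windows of 300 bases, most of them upstream of the start of the gene, were taken from RefSeq (GRCm38.p6) for 5 of the 6 genes. The windows of Clec7a, Clec4d and Cd300lf are shown because these 3 genes had different courses in the lung. They come from chr6:129472730-129473029 on the minus strand for Clec7a, chr6:123261857-123262156 on the plus strand for Clec4d and chr11:115133943-115134242 on the minus strand for Cd300lf, and capitals mark each match to GAGGAA, the core of the site of PU.1, a transcription factor of myeloid cells, on either strand.
Clec7a: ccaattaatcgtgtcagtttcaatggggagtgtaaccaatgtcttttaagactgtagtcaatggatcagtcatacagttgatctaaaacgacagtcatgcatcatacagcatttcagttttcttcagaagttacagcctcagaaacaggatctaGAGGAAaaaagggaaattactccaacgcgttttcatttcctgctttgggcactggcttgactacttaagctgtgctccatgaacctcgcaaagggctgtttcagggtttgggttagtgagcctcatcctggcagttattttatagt
Clec4d: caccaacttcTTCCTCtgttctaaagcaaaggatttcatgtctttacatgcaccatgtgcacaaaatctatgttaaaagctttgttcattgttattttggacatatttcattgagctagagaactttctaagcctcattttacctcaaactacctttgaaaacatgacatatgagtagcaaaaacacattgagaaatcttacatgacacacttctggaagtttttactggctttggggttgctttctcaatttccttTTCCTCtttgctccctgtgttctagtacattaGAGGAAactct
Cd300lf: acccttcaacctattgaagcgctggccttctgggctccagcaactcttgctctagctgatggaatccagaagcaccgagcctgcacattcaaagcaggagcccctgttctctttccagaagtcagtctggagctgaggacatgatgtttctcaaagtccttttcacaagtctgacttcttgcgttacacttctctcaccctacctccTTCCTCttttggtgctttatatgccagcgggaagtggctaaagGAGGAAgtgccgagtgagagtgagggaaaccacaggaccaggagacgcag

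The PU.1 core GAGGAA was found on either strand in the windows of all 5 genes searched, with 10 matches in all, and in 28.3% of the 32851 promoter windows of the same length in the table. Clec7a had 1 match, beginning at -96 from the first base of the gene, Cd300lf had 2, at -43 and 0, and Clec4d had 3, at -240, 7 and 39. Clec5a had 2 (at -81 and -55) and Clec4e 2 (at -123 and -56). The C/EBP pattern TTGCNNAA, present in 10.8% of windows, matched in Clec4e alone, at -66. The patterns searched for AP-1 (TGANTCA, 7.81% of windows), STAT factors (TTCNNNGAA, 8.3%) and NF-kappaB (0.411%) had no match in the 5 windows. A match is only a run of these letters and says nothing of binding.

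Over the 3 O3 times together, all 6 genes were higher than in air in Il10-/- mice, by 0.77 to 1.33 on the log2 scale (1.71-fold to 2.51-fold), while 5.27% of the 12394 genes were called higher in that comparison. In Il10+/+ mice 2 of the 6, Clec7a and Clec4n, were called higher, against 2.74% of all genes. Calls came from a limma fit of the 8 groups, with an adjusted p (Benjamini-Hochberg, all genes) below 0.05, and the log2 changes, standard errors (SE) and adjusted p-values below come from that fit. No member was called lower in any comparison. In Il10+/+ mice 5 of the 6 had an unadjusted p under 0.05 over the O3 times. No member was called for a difference in O3 response between the genotypes (adjusted p = 0.717 or more), so the unlike counts do not show one. The median change of the 6 over the O3 times was 0.81 in Il10-/- and 0.45 in Il10+/+ mice, where the median of all genes was -0.01 in both.

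**Figure D1:**
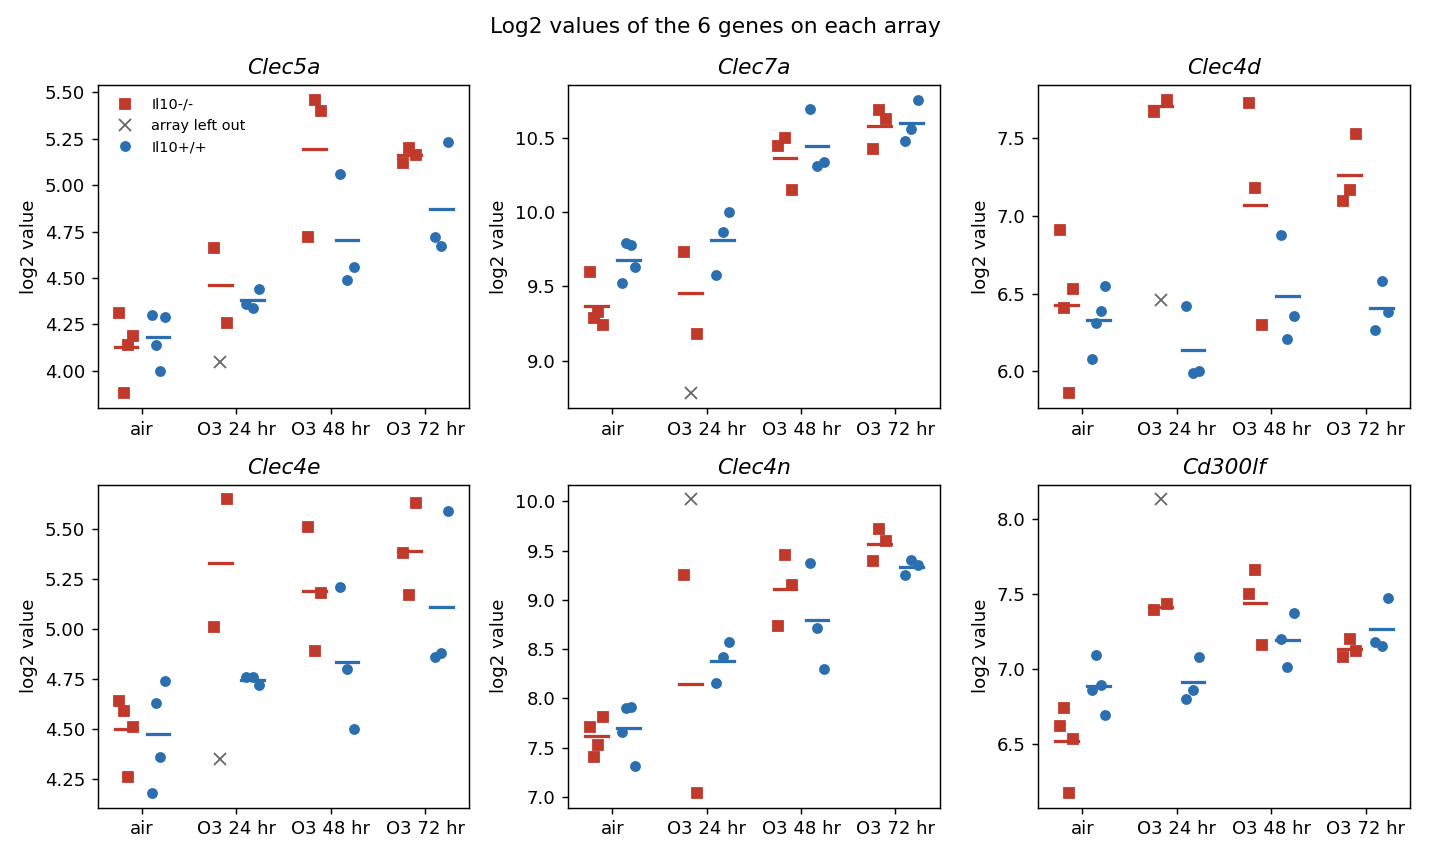
Log2 value of each of the 6 genes (vertical axis) on every array, by exposure (horizontal axis), with Il10-/- mice as red squares left of Il10+/+ mice as blue circles, bars at group means and a grey cross for the array left out. Clec7a and Clec4n stood high in both genotypes at 72 hr, at 10.43 or above and 9.25 or above, and the Clec4d values of Il10-/- lungs after 24 hr were 7.67 and 7.75.

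At 72 hr all 6 genes had every O3 array above every air array in Il10-/- mice, as did 11.5% of all genes, and 5 of 6 did so in Il10+/+ mice, as did 9.34% of all genes, with Clec4d being the exception. Of the 6 genes, 5 were called higher at 72 hr in Il10-/- mice (4.25% of all genes were) and 3 of 6, Clec5a, Clec7a and Clec4n, in Il10+/+ mice (2.47% of all genes). At 48 hr, 5 of 6 were called in Il10-/- mice (4.04% of all genes) and Clec7a alone in Il10+/+ mice (2.71%). At 24 hr, 2 of 6 were called in Il10-/- mice (1.32%), Clec4d and Cd300lf, and none of the 6 in Il10+/+ mice (0.0484%), where Clec4n alone had an unadjusted p under 0.05.

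**Figure D2:**
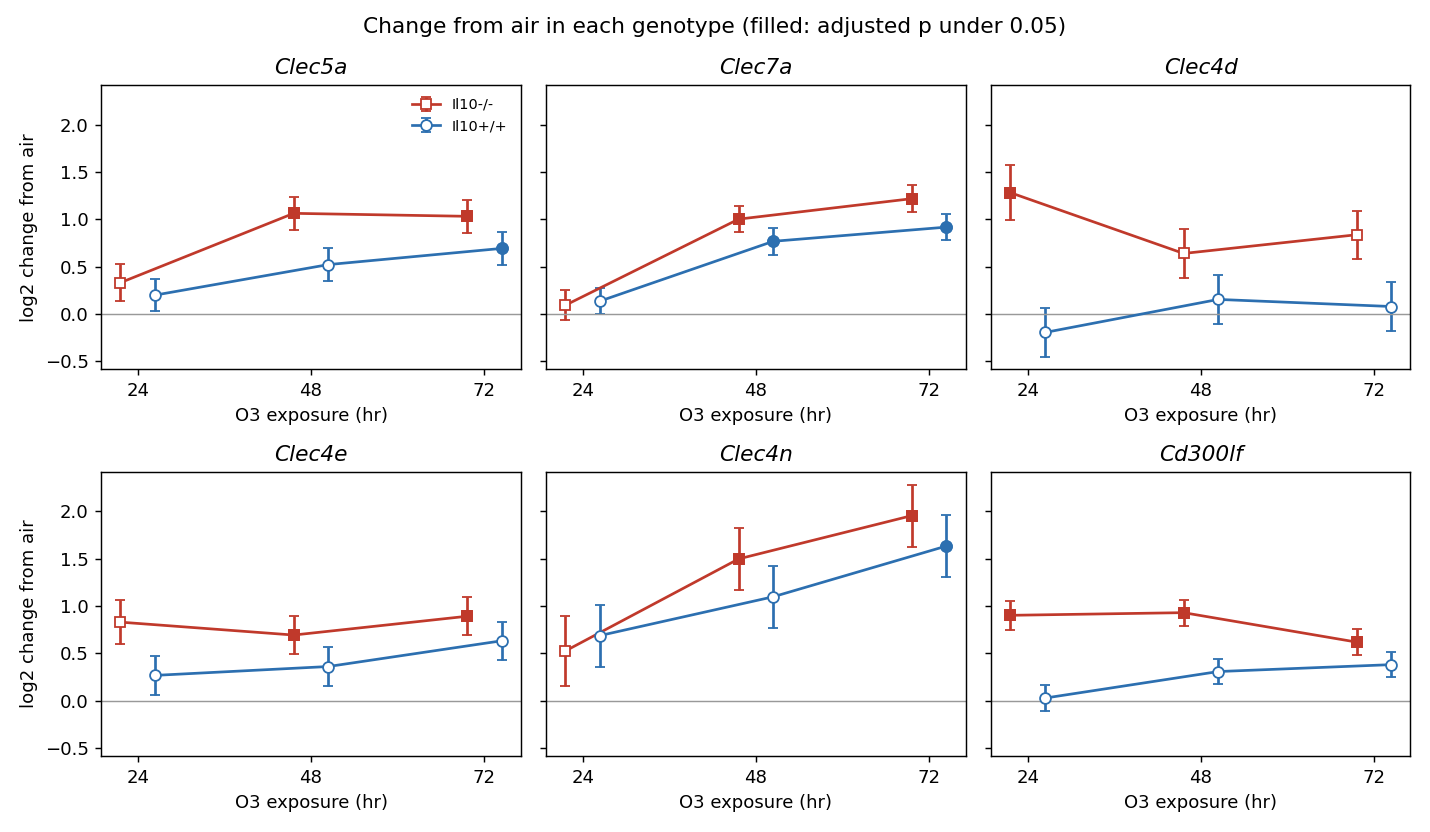
Log2 change from air (vertical axis) at 24, 48 and 72 hr of O3 (horizontal axis) in Il10-/- mice (red squares) and Il10+/+ mice (blue circles), with bars of 1 SE and filled symbols for an adjusted p under 0.05. The changes of Clec4n at 72 hr stand highest, 1.96 for Il10-/- and 1.63 for Il10+/+ lungs, and the 24-hr change of Clec4d is filled for Il10-/- lungs and open for Il10+/+ lungs.

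Clec4n, the gene of Dectin-2, which binds mannose-rich sugars, had the largest mean O3 change of the 6 in both genotypes. In Il10-/- mice its log2 values were 7.71, 7.41, 7.53 and 7.81 in air, 9.25 and 7.04 at 24 hr, 8.73, 9.46 and 9.15 at 48 hr, and 9.39, 9.72 and 9.60 at 72 hr. In Il10+/+ mice they were 7.66, 7.90, 7.91 and 7.31 in air, 8.16, 8.42 and 8.57 at 24 hr, 9.37, 8.71 and 8.30 at 48 hr, and 9.25, 9.40 and 9.35 at 72 hr. All arrays of 48 and 72 hr lay above all air arrays in both genotypes, whereas at 24 hr only the Il10+/+ arrays did, and the 2 Il10-/- arrays of 24 hr lay on either side of the air range. The change at 72 hr was 1.96 (SE 0.33, adjusted p = 0.000683, 3.88-fold) in Il10-/- mice and 1.63 (SE 0.33, adjusted p = 0.00443, 3.1-fold) in Il10+/+ mice. At 48 hr it was 1.5 (SE 0.33, adjusted p = 0.00626) in Il10-/- mice, and in Il10+/+ mice 1.10 (SE 0.33) missed the threshold with an adjusted p of 0.0696. The genotype difference of Clec4n over O3 was 0.11 (SE 0.21, adjusted p = 0.894) and was not called. The second probe set of Clec4n, with a mean of 7.28 against 8.58, followed the first with r = 0.977 over the 25 arrays.

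The 24-hr value of Clec4n in Il10-/- mice is not settled by these arrays. Its change from air there, 0.53, became 1.63 (adjusted p = 0.000624) without replicate 3 and -0.58 without replicate 1, and the difference from Il10+/+ mice at 24 hr, -0.24, became 0.86 without replicate 3 and -1.35 (adjusted p = 0.0132) without replicate 1. Without either of these 2 arrays, or both, the 48-hr change in Il10+/+ mice passed the threshold (adjusted p = 0.00167), and without Il10-/- O3 48 hr replicate 2 the 48-hr call in Il10-/- mice was lost (1.32, adjusted p = 0.0538). That call was also lost against air of the same exposure time (1.44, adjusted p = 0.0636) and with all 26 arrays (1.5, adjusted p = 0.111). The Il10+/+ call over the O3 times was lost without Il10+/+ air 24 hr replicate 1 (1.13, adjusted p = 0.0529) or air 48 hr replicate 2 (1.01, adjusted p = 0.067).

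Clec7a, the gene of Dectin-1, which binds the beta-glucans of fungal walls, took a like course in both genotypes, with little change at 24 hr and higher values from 48 hr on. In Il10-/- mice it read 9.60, 9.29, 9.33 and 9.24 in air, 9.73 and 9.18 at 24 hr, 10.45, 10.5 and 10.15 at 48 hr, and 10.43, 10.69 and 10.63 at 72 hr. In Il10+/+ mice it read 9.52, 9.79, 9.78 and 9.63 in air, 9.58, 9.87 and 10 at 24 hr, 10.7, 10.31 and 10.34 at 48 hr, and 10.48, 10.56 and 10.76 at 72 hr. Every array of 48 and 72 hr, in both genotypes, lay above every array of air and 24 hr. The change at 48 hr was 1.00 (SE 0.14, adjusted p = 9.3e-05) in Il10-/- and 0.77 (SE 0.14, adjusted p = 0.0024) in Il10+/+ mice, and at 72 hr it was 1.22 (SE 0.14, adjusted p = 1.6e-05) in Il10-/- and 0.92 (SE 0.14, adjusted p = 0.000286) in Il10+/+ mice. Clec7a was the only member that read lower in Il10-/- mice in each of the 4 genotype comparisons, by 0.01 to 0.36, with adjusted p-values of 0.387 or more, and the 72-hr difference turned to 0.016 when each array was centred on its median. It also was the only one called at both 48 and 72 hr in both genotypes, and those 4 calls held without any single array.

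Clec5a, whose product amplifies inflammatory signals in monocytes and neutrophils, was a dim gene here, at 3.88 to 5.46 on all arrays used, and stood higher from 48 hr on. Its values in Il10-/- mice were 4.31, 3.88, 4.14 and 4.19 in air, 4.66 and 4.26 at 24 hr, 4.72, 5.46 and 5.40 at 48 hr, and 5.12, 5.2 and 5.16 at 72 hr. Those in Il10+/+ mice were 4.30, 4.14, 4.00 and 4.29 in air, 4.36, 4.34 and 4.44 at 24 hr, 5.06, 4.49 and 4.56 at 48 hr, and 4.72, 4.67 and 5.23 at 72 hr. The arrays of 48 and 72 hr were above those of air in both genotypes. The changes were 1.06 (SE 0.17, adjusted p = 0.000411) at 48 hr and 1.03 (SE 0.17, adjusted p = 0.000695) at 72 hr in Il10-/- mice. In Il10+/+ mice 0.52 (SE 0.17) at 48 hr had an adjusted p of 0.109, and 0.69 (SE 0.17) at 72 hr had one of 0.0274. The 72-hr call in Il10+/+ mice was lost without any of 3 arrays, Il10+/+ O3 72 hr replicate 3 (adjusted p = 0.271), air 24 hr replicate 2 (0.0638) or air 48 hr replicate 1 (0.0793), and against air of 48 hr alone (0.73, adjusted p = 0.119), while removal of Il10-/- O3 48 hr replicate 1 brought the 48-hr change in Il10+/+ mice past the threshold (0.0495). Over the O3 times the Il10+/+ change of Clec5a, 0.47 (adjusted p = 0.0581), passed without any of 4 arrays, which were both Il10-/- arrays of 24 hr, replicate 1 of Il10-/- mice at 48 hr and replicate 2 of Il10+/+ mice at 48 hr (adjusted p = 0.0228 to 0.0493).

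Clec4d differed between the genotypes during O3, and was the only 1 of the 6 called in a genotype comparison. Its product forms a pair with Mincle and binds glycolipids of mycobacteria. In Il10-/- mice it read 6.91, 6.41, 5.86 and 6.53 in air, 7.67 and 7.75 at 24 hr, 7.73, 7.18 and 6.30 at 48 hr, and 7.10, 7.17 and 7.53 at 72 hr. In Il10+/+ mice it read 6.08, 6.31, 6.39 and 6.55 in air, 6.42, 5.99 and 6.00 at 24 hr, 6.88, 6.21 and 6.36 at 48 hr, and 6.27, 6.58 and 6.38 at 72 hr. The Il10-/- arrays of 24 and 72 hr lay above all Il10+/+ arrays of the same time, while those of air and 48 hr overlapped. At 24 hr the difference was 1.57 (SE 0.30, adjusted p = 0.0188, 2.98-fold), a comparison in which 0.169% of genes were called higher. Over the 3 O3 times it was 1.00 (SE 0.16, adjusted p = 0.00376, 2.01-fold), where 0.266% were. In air it was 0.10 (SE 0.24), at 48 hr 0.58 (SE 0.27) and at 72 hr 0.86 (SE 0.27), none of them called. None of the 6 genes was called in those 3 comparisons, in which 0.00807% (air), 0.00807% (48 hr) and 0.0242% (72 hr) of all genes were called higher.

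Set against air, the Clec4d change of Il10-/- lungs after 24 hr was 1.28 (SE 0.29, adjusted p = 0.0217, 2.43-fold), while that of Il10+/+ lungs was -0.20 (SE 0.25, adjusted p = 0.978). The O3 response over the 3 times was 0.91 (SE 0.29) larger in Il10-/- than in Il10+/+ mice, with an unadjusted p of 0.00469 and an adjusted p of 0.966, so a difference in response was not shown, and 0% of genes were called in that comparison. The 24-hr genotype call was lost without Il10+/+ O3 24 hr replicate 2 (adjusted p = 0.0957) or replicate 3 (0.0703) and with all 26 arrays (1.16, adjusted p = 0.0914), where the difference over O3 was 0.87 (adjusted p = 0.0705). Both 24-hr calls of Clec4d were lost in a fit of only the arrays compared, with an adjusted p of 0.351 between genotypes and 0.243 against air. The 24-hr call against air was also lost with air of the same exposure time (1.05, adjusted p = 0.189) and with all 26 arrays (0.87, adjusted p = 0.0839). The array labelled Il10-/- air 48 hr replicate 1 had the lowest Clec4d value of all, 5.86, and without it the change at 24 hr in Il10-/- mice was 1.09 (adjusted p = 0.0617) and over the O3 times 0.73 (adjusted p = 0.0554). Il10-/- O3 48 hr replicate 3 was the low array of its group, and its removal made the 48-hr change 1.02 (adjusted p = 0.0122) in place of 0.64 (adjusted p = 0.156). The 72-hr change in Il10-/- mice, 0.84 (adjusted p = 0.0559), passed without any of 5 arrays, Il10-/- air 24 hr replicate 1, O3 24 hr replicate 1 or 3, or O3 48 hr replicate 1 or 3 (adjusted p = 0.0194 to 0.0438).

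**Figure D3:**
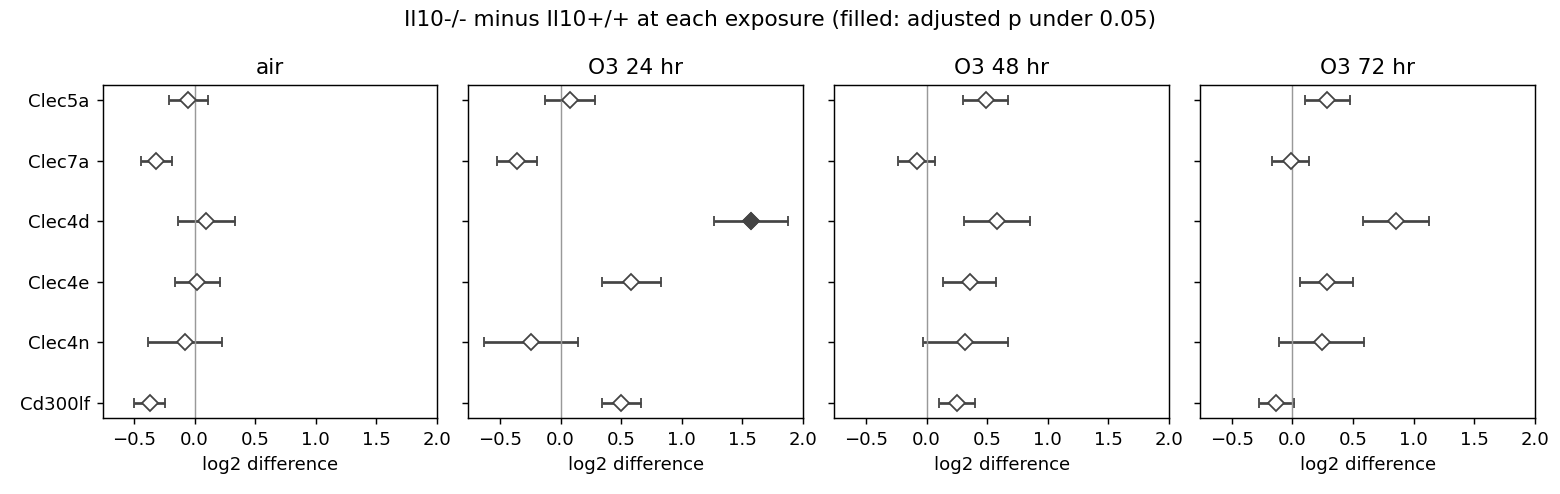
Log2 difference of Il10-/- minus Il10+/+ mice (horizontal axis) for the 6 genes (vertical axis) in air and at 24, 48 and 72 hr of O3, with bars of 1 SE and filled symbols for an adjusted p under 0.05. Clec4d at 24 hr, at 1.57, is the 1 filled symbol, and Clec7a lies at or below 0 in every panel.

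Of 15 neutrophil markers, 2 were called higher over the O3 times than in air in Il10-/- mice and 0 in Il10+/+ mice. The 2 were Mmp8 (1.13, SE 0.23, adjusted p = 0.0041) and Il1r2 (0.89, SE 0.12, adjusted p = 8.6e-05). At 24 hr 2 were called higher in Il10-/- than in Il10+/+ mice. The mean level of the 15 was 5.78 to 6.17 in air, 6.54 to 6.64 at 24 hr, 6.08 to 6.33 at 48 hr and 6.03 to 6.44 at 72 hr in Il10-/- mice. In Il10+/+ mice it was 5.91 to 6.37 in air, 5.60 to 6.32 at 24 hr, 5.60 to 6.22 at 48 hr and 5.79 to 5.83 at 72 hr. Over the O3 times 6 of the 15 were called higher in Il10-/- than in Il10+/+ mice and none lower, led by the calprotectin genes S100a9 (1.89, SE 0.33, adjusted p = 0.00635) and S100a8 (1.78, SE 0.32, adjusted p = 0.00661) and the growth factor receptor gene Csf3r (1.13, SE 0.19, adjusted p = 0.00503). These 3 were not called against air over the O3 times in either genotype. S100a9 averaged 10.43 in air and 11.67, 10.97 and 11.5 at 24, 48 and 72 hr in Il10-/- mice. In Il10+/+ mice it averaged 10.67 in air and 9.53, 9.39 and 9.55 at those times. S100a8 averaged 9.88 in air and 11.07, 10.48 and 10.9 in Il10-/- mice. In Il10+/+ mice S100a8 averaged 10.08 in air and 9.01, 9 and 9.09. Clec4d had r = 0.746 with the mean level of the 15 markers over the 25 arrays, which share groups and RNA source, and the other 5 genes -0.132 to 0.437. The part of these neutrophil genes in the Clec4d difference was not tested. The probe set of Clec4d is of a kind whose probes can match transcripts of more than 1 gene, and so is that of Clec4n.

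Clec4e, the gene of Mincle, which binds a glycolipid of mycobacteria and a protein released by dying cells, read low on all arrays, at 4.18 to 5.65, and its O3 calls in Il10-/- mice were among the least steady. Its values in Il10-/- mice were 4.64, 4.59, 4.26 and 4.51 in air, 5.01 and 5.65 at 24 hr, 5.51, 4.89 and 5.18 at 48 hr, and 5.38, 5.17 and 5.63 at 72 hr. In Il10+/+ mice they were 4.18, 4.63, 4.36 and 4.74 in air, 4.76, 4.76 and 4.72 at 24 hr, 5.21, 4.80 and 4.50 at 48 hr, and 4.86, 4.88 and 5.59 at 72 hr. Every O3 array of Il10-/- mice was above every air array of that genotype. The change was 0.83 (SE 0.23, adjusted p = 0.0611) at 24 hr, 0.69 (SE 0.20, adjusted p = 0.0427) at 48 hr and 0.89 (SE 0.20, adjusted p = 0.0103) at 72 hr in Il10-/- mice. In Il10+/+ mice it was 0.27, 0.36 and 0.63 (SE 0.20 each), and 0.63 at 72 hr had an adjusted p of 0.103. In the genotype comparison over O3 Clec4e stood 0.41 (SE 0.13, adjusted p = 0.161) higher in Il10-/- mice, and 0.51 (adjusted p = 0.0431) without Il10-/- O3 24 hr replicate 1.

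The 48-hr call of Clec4e was lost without any of 11 arrays, namely each Il10-/- air array, each Il10+/+ O3 24 hr array, Il10-/- O3 48 hr replicates 1 and 3, Il10+/+ O3 48 hr replicate 2 and Il10-/- O3 72 hr replicate 1 (adjusted p = 0.0508 to 0.176), and the 72-hr call without Il10-/- O3 72 hr replicate 3 (0.0916). The 24-hr change reached significance on removal of Il10-/- O3 24 hr replicate 1 (1.15, adjusted p = 0.0161) or Il10+/+ O3 72 hr replicate 3 (0.83, adjusted p = 0.0398). The second probe set of Clec4e had a mean of 4.39 against 4.87 and followed the first with r = 0.469 only. In Il10-/- mice it averaged 4.41 at 24 hr and 4.44 in air, where the first differed by 0.83, and in air it averaged 4.44 in Il10-/- and 4.18 in Il10+/+ mice. The call of the first at 48 hr was also lost against air of the same exposure time (0.81, adjusted p = 0.0874).

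Cd300lf, the inhibitory receptor, rose early in Il10-/- mice, and was the member with the smallest standard error. In Il10-/- mice its values were 6.62, 6.74, 6.17 and 6.53 in air, 7.39 and 7.43 at 24 hr, 7.50, 7.66 and 7.16 at 48 hr, and 7.08, 7.20 and 7.12 at 72 hr. In Il10+/+ mice they were 6.86, 7.09, 6.89 and 6.69 in air, 6.80, 6.86 and 7.08 at 24 hr, 7.20, 7.01 and 7.37 at 48 hr, and 7.18, 7.15 and 7.47 at 72 hr. All O3 arrays of Il10-/- mice lay above all air arrays of that genotype, and in Il10+/+ mice the 72-hr arrays did so while those of 24 and 48 hr overlapped with air. The change in Il10-/- mice was 0.90 (SE 0.15, adjusted p = 0.00308) at 24 hr, 0.93 (SE 0.14, adjusted p = 0.00014) at 48 hr and 0.62 (SE 0.14, adjusted p = 0.00836) at 72 hr, calls that held without any single array. The 24-hr call was lost against air of the same exposure time (0.74, adjusted p = 0.0556) and in a fit of only the arrays compared (0.90, adjusted p = 0.209). In Il10+/+ mice the change was 0.03, 0.31 and 0.38 (SE 0.14 each), with adjusted p-values of 0.154 or more.

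In air, Cd300lf read 0.37 (SE 0.13) lower in Il10-/- than in Il10+/+ mice, with an unadjusted p of 0.00765 and an adjusted p of 0.461. At 24 hr of O3 it read 0.50 (SE 0.16, adjusted p = 0.149) higher in Il10-/- mice, and at 72 hr the difference was -0.13 (SE 0.15). The O3 response over the 3 times was 0.58 (SE 0.15) larger in Il10-/- mice, with an unadjusted p of 0.00111, rank 19 of 12394 genes. Its adjusted p was 0.717, so a difference in response was not shown. The array labelled Il10-/- air 48 hr replicate 1 had the lowest Cd300lf value of all, 6.17. Without it the genotype difference in air was -0.26 and the difference in response was 0.46. When genotype and exposure were tested for interaction (F test), Cd300lf had an unadjusted p of 0.00147 and Clec4d one of 0.00828, with adjusted p-values of 0.88 and above. That test called none of the 12394 genes, 0% of them, with 417 at an unadjusted p under 0.05.

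In the order of group means, the 6 genes fell into different patterns. For Clec4n, Il10-/- and Il10+/+ mice at 72 hr came first, with means of 9.57 ± 0.17 and 9.33 ± 0.08 (SD, n = 3 each), and the 2 air groups came last, at 7.62 ± 0.18 in Il10-/- and 7.70 ± 0.28 in Il10+/+ mice (SD, n = 4 each). For Clec7a the only neighbours in the order without overlap were Il10-/- mice at 48 hr, at 10.37 ± 0.19, and Il10+/+ mice at 24 hr, at 9.82 ± 0.21 (SD, n = 3 each). For Clec4d the 3 Il10-/- O3 groups came first, at 7.71 ± 0.05 (SD, n = 2) at 24 hr, 7.07 ± 0.72 (n = 3) at 48 hr and 7.27 ± 0.23 (n = 3) at 72 hr, and the Il10-/- 24-hr group was separate from its neighbour. For Cd300lf every pair of neighbouring groups overlapped, though Il10-/- mice in air came last, at 6.51 ± 0.25 (SD, n = 4). For Clec5a the step without overlap lay between the Il10+/+ arrays of 24 hr and those of both air groups, and for Clec4e between the Il10+/+ arrays of 24 hr and those of Il10-/- mice in air, while the air arrays of Il10+/+ mice overlapped with both.

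**Figure D4:**
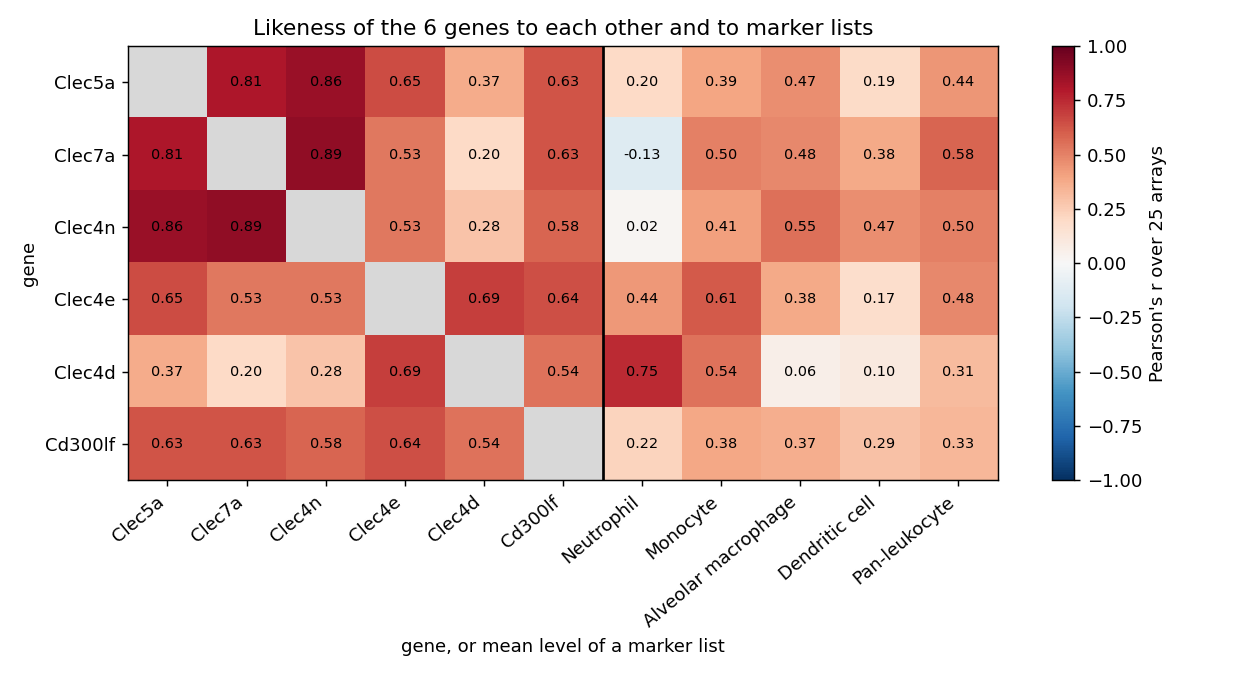
Pearson's r over the 25 arrays (colour and printed value) between each of the 6 genes (rows) and the other members, left of the line, and the mean level of 5 marker lists, right of it. Clec5a, Clec7a and Clec4n form the block of highest values, 0.807 to 0.89, and Clec4d has 0.203 with Clec7a and 0.746 with neutrophil markers.

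Across the 25 arrays, which share the 8 groups, Clec5a, Clec7a and Clec4n were most alike (r = 0.807 to 0.89 for their 3 pairs), and Clec4d and Clec4e, which are neighbours on chromosome 6, had r = 0.692. The lowest of the 15 pairs was Clec7a with Clec4d, at 0.203. After the group means were removed, Clec7a with Clec4n kept r = 0.69 and Clec4d with Clec4e r = 0.459, while Clec4d with Clec4n, also neighbours, had -0.002. These values are descriptions with no test.

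The genes most like each member differed too. Those nearest to Clec4d were Il1b, the gene of an inflammatory cytokine (r = 0.849), Il1r2, a decoy receptor for it (0.838), and Slfn4 (0.785). The mean log2 value of Il1b in Il10-/- lungs was 8.30 at 24 hr, 8.12 at 48 hr and 8.55 at 72 hr, and in Il10+/+ lungs 6.95, 7.56 and 7.81 at the same times. Those nearest to Clec4e were Pirb, an inhibitory receptor of myeloid cells (0.846), the chemokine Ccl9 (0.819) and the chemokine receptor Ccr1 (0.801). The adhesion molecule Icam1 (0.943), Marchf5 (0.941) and Prdx4 (0.941) were nearest to Clec4n, and Nup37 (0.93), Selenoh (0.927) and Fignl1 (0.918) to Clec7a. Rfc4, a subunit of the clamp loader of DNA replication (0.91), Sc5d (0.894) and Serpina3n (0.893) were nearest to Clec5a, and Exosc9 (0.837), the arginase Arg2 and glutathione reductase, Gsr (0.823), to Cd300lf. All are over 25 arrays and across 12394 genes.

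Most other genes of the receptor family did not pass the test, nor did most of all genes. Of 29 other C-type lectin receptor genes measured, 1 was called higher over the O3 times in Il10-/- mice, the inhibitory receptor gene Clec4a2 (0.44, SE 0.12, adjusted p = 0.0319), and 2 were called lower, thrombomodulin, Thbd (-0.39, SE 0.08, adjusted p = 0.00334), and Cd93 (-0.30, SE 0.09, adjusted p = 0.0362), both known from endothelial cells. In Il10+/+ mice Thbd alone was called, with a change of -0.28 (SE 0.08, adjusted p = 0.0418). The median change of these 29 was -0.05 in Il10-/- and -0.02 in Il10+/+ mice, near the -0.01 of all genes. Of 8 other genes of the CD300 and TREM families and related receptors, 2 were called higher in Il10-/- mice, Pirb (0.58, SE 0.12, adjusted p = 0.00474) and Trem2 (0.29, SE 0.08, adjusted p = 0.0307), and 0 in Il10+/+ mice. The calls of Clec4a2 and Cd93 were each lost without any of 6 arrays, that of Trem2 without any of 4 and that of Thbd in Il10+/+ mice without any of 11, while those of Thbd and Pirb in Il10-/- mice held without any single array. These lists share the arrays with the members, and the members were chosen with results known, so the lists are set beside them without a test.

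The signalling genes behind these receptors gave few calls. None of 16 adaptor and kinase genes and none of 8 phosphatase and brake genes passed the test over the O3 times in either genotype. At 72 hr in Il10-/- mice the adaptor gene Fcer1g (0.70, SE 0.16, adjusted p = 0.00926), which serves Clec4d, Clec4e and Clec4n, the kinase gene Fgr (0.60, SE 0.17, adjusted p = 0.0399) and the inhibitory receptor gene Cd200r1 (0.73, SE 0.16, adjusted p = 0.00715) were called higher. In that comparison 4.25% of all genes were. The call of Fcer1g was lost without Il10-/- O3 72 hr replicate 3 (adjusted p = 0.0612), that of Cd200r1 without replicate 2 of that group (0.0624) and that of Fgr without any of 5 arrays. In Il10+/+ mice at 72 hr Fcer1g had a change of 0.23 (SE 0.16, adjusted p = 0.544). Tyrobp, the adaptor of Clec5a, had 0.49 (SE 0.16, adjusted p = 0.0715) in Il10-/- and 0.15 (SE 0.16) in Il10+/+ mice at 72 hr, Syk had -0.02 (SE 0.18) in Il10-/- and -0.20 (SE 0.18) in Il10+/+ mice, and Ptpn6 had 0.04 (SE 0.11) in Il10-/- and -0.03 (SE 0.11) in Il10+/+ mice. Tyrobp, Syk and Ptpn6 were singled out as partners of the receptors, outside the rule for named genes.

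Of 24 cytokine and effector genes downstream of the receptors, 6 were called higher over the O3 times in Il10-/- mice and 4 in Il10+/+ mice, with none lower. In Il10-/- mice they were led by the disrupted Il10 itself (1.41, SE 0.32, adjusted p = 0.00824), Il1b (1.07, SE 0.21, adjusted p = 0.00264), Il6 (0.84, SE 0.18, adjusted p = 0.0061) and the neutrophil chemokine gene Cxcl1 (0.82, SE 0.21, adjusted p = 0.019). The study reported no detectable Il10 mRNA in lungs of Il10-/- mice in air or O3. The Il10 signal is therefore counted among the 6 but cannot be read as a cytokine response. In Il10+/+ mice the 4 genes called were the chemokine genes Ccl2 (0.81, SE 0.18, adjusted p = 0.0126) and Cxcl2 (0.31, SE 0.08, adjusted p = 0.0306) and the early response genes Egr1 (0.69, SE 0.14, adjusted p = 0.00646) and Egr2 (0.64, SE 0.14, adjusted p = 0.0106). Without Il10-/- air 48 hr replicate 1, the array with an Il10 value of 3.87, the change of Il10 was 0.74 (SE 0.10, adjusted p = 0.000142) and that of Cxcl1 was not called (0.83, adjusted p = 0.0545), nor was Cxcl1 without Il10-/- air 24 hr replicate 1 or air 48 hr replicate 2 (0.0662 and 0.0544), while it was 0.54 (adjusted p = 0.0277) without Il10-/- O3 24 hr replicate 1. In Il10+/+ mice the calls of Ccl2 and Egr1 were lost without 1 array each, air 48 hr replicate 1 (0.0666) for Ccl2 and air 24 hr replicate 1 (0.0558) for Egr1, that of Egr2 without either of 2 arrays (air 24 hr replicate 1 and air 48 hr replicate 2) and that of Cxcl2 without any of 7. Il1b was also called higher in Il10-/- than in Il10+/+ mice over O3 (0.88, SE 0.17, adjusted p = 0.0123).

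Most markers of other myeloid cells did not pass the test, nor did most of all genes. Of 16 alveolar macrophage markers, 3 were called higher over the O3 times in Il10-/- mice, Ctsk (0.97, SE 0.19), Marco (0.96, SE 0.29) and Msr1 (0.43, SE 0.13), and Ctsk alone in Il10+/+ mice (0.99, SE 0.19), and none was called between genotypes over O3. At 72 hr Ctsk (1.30) and Cd68 (1.08) were called higher and Krt79 lower (-0.67, adjusted p = 0.0319) in Il10-/- mice. Ctsk alone was called in Il10+/+ mice at 72 hr (1.42). The calls of Cd68 and Krt79 were lost without 1 array and without any of 5. Of 12 monocyte markers Vcan alone was called over the O3 times in each genotype, with 0.84 (SE 0.14) in Il10-/- and 0.65 (SE 0.13) in Il10+/+ mice. At 72 hr Vcan, F13a1 and Fn1 were called higher in Il10-/- mice, and Vcan and Fn1 in Il10+/+ mice. The calls of F13a1 and Fn1 in Il10-/- mice were lost without any of 16 and 6 arrays, and that of Fn1 in Il10+/+ mice without any of 4. Of 10 dendritic cell markers Ccl17 alone was called over the O3 times, with 1.37 (SE 0.19) in Il10-/- and 1.56 (SE 0.19) in Il10+/+ mice. Of 13 pan-leukocyte genes, Cd14 (1.17, SE 0.11) and Laptm5 (0.47, SE 0.11) were called higher over the O3 times in Il10-/- mice. Cd14 (0.99, SE 0.11) alone was called for Il10+/+ mice. In Il10-/- lungs after 24 hr, Cd14 was called higher than in air (1.31, SE 0.16). Ptprc was called lower there (-0.82, SE 0.19, adjusted p = 0.0276). Between the genotypes at 24 hr, where Clec4d was called higher, Ptprc was called lower for Il10-/- lungs (-0.91, SE 0.20, adjusted p = 0.0415). None of the other pan-leukocyte genes was called in that comparison. The calls of Marco and Msr1 were lost without any of 16 and 18 arrays, and that of Laptm5 without Il10-/- air 48 hr replicate 1 (adjusted p = 0.0582). The mean level of the monocyte markers in Il10-/- mice was 7.95 to 8.06 in air. It was 8.15 to 8.35 at 24 hr, 8.08 to 8.29 at 48 hr and 8.37 to 8.5 at 72 hr of O3. In Il10+/+ mice it was 8.17 to 8.27 in air. There it was 7.92 to 8.05 at 24 hr, 8.01 to 8.3 at 48 hr and 8.21 to 8.32 at 72 hr. The mean level of the macrophage markers spanned 8.31 to 8.71 in Il10-/- and 8.41 to 8.84 in Il10+/+ mice. Clec4e had r = 0.613 with the monocyte mean, Clec4n r = 0.549 with the macrophage mean and Clec7a r = 0.583 with the pan-leukocyte mean. The part of these cells in the changes of the 6 genes was not tested.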

How the data were processed

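Log2 values of the Affymetrix arrays were computed by the authors with Robust Multichip Average (RMA) in RMAExpress, version not given in the sources used here, and were used as deposited. Quantile normalization in RMA makes values relative to each array's whole distribution, and summary values of dim probe sets are compressed, so changes of Clec5a and Clec4e may be understated. Of 22690 probe sets, the 20393 with 1 symbol in the platform annotation were used, and the 691 with several and the 1606 not listed were left out. The number of arrays limits the precision. Groups came from the sample titles. Whether arrays of a group came from separate mice is not stated in the labels, so p-values measure only the spread between these arrays.

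The fit used limma (3.58.1, R 4.3.3) with 1 mean per group, empirical Bayes moderation and Benjamini-Hochberg adjustment over 12394 genes. The steps were tested on simulated data. The members, lists and tests were chosen with earlier results of these data known. Genes named outside the 6 were Il10, the 3 nearest to each member by r, and up to 4 of each list past the threshold with the largest changes. The other lists, of B cells, T cells, alveolar type 2 cells, club cells and endothelial cells, are given in the closing section. The 11 alternatives included the study's analysis of variance of genotype and exposure. RefSeq promoters were searched on both strands in Python 3.11.15, and figures were drawn with matplotlib 3.10.9.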

Additional observations from a re-analysis of the deposited data

Results flagged for a closer look

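Clec4n and Cd300lf had their highest values on the array left out of the 25-array fit. On this array, Il10-/- O3 24 hr replicate 2, Clec4n read 10.02, above the 8 air arrays of both genotypes (7.31 to 7.91), and Cd300lf read 8.13, above their range of 6.17 to 7.09. The other 4 genes lay within or below the air range on this array, with Clec7a at 8.78, Clec4d at 6.46, Clec4e at 4.35 and Clec5a at 4.05. On the same array Sftpc read 6.36, against 14.29 or more elsewhere, the mean of 9 B cell markers was 10.55, against 5.93 to 7.90 on the other arrays, and that of 15 neutrophil markers 7.37, against 5.60 to 6.64. The part of this cell makeup in the Clec4n and Cd300lf values was not tested. In none of the 12 groups of 4 air arrays examined did 1 array stand apart from the rest, where chance gives about 1 in 20.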

How the results depend on the processing

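No direction of a called change in the 6 genes turned under any alternative, and neither averaging the probe sets of each gene nor median centring changed a call of a member. With all 26 arrays fewer members were called: 1 at 24 hr, 3 at 48 hr and 3 at 72 hr in Il10-/- mice, 0 at 48 hr, 1 at 72 hr and 0 over O3 in Il10+/+ mice, and 0 between genotypes at 24 hr and over O3. Over all genes, calls in either direction with all 26 and with 25 arrays numbered 695 and 259 at 24 hr, 97 and 785 at 48 hr and 47 and 728 at 72 hr in Il10-/- mice, 6 and 460 at 48 hr, 17 and 391 at 72 hr and 21 and 454 over O3 in Il10+/+ mice, and between genotypes 82 and 82 at 24 hr and 23 and 79 over O3. Air of the same exposure time gave 0 calls at 24 hr and 3 at 48 hr in Il10-/- mice. There 0.436% and 2.99% of all genes were called in either direction, against 2.09% and 6.33% in the main fit. The fit of only the arrays compared called 0 members at 24 hr in Il10-/- mice (0% of all genes). Between genotypes at 24 hr it called 0 (0.00807%), and at 48 hr in Il10+/+ mice 2 (3.55%). With array weights 0 members and 0% of all genes were called in both of these 24-hr comparisons. At 48 hr in Il10+/+ mice weights called 4 members and 16.6% of all genes, against 3.71% in the main fit. Over O3 in Il10+/+ mice they called 4 members and 13.1% of all genes, against 3.66%. A covariate for the 5 arrays whose source name ends in c gave 3 calls at 48 hr in Il10+/+ mice (4.06% of all genes). Leaving out both remaining Il10-/- O3 24 hr arrays, chosen after seeing the data, gave 2 there (5.76% of all genes). A filter on dim genes (a share of 0.3333) removed Clec5a and Clec4e and left 3 calls at 48 hr in Il10-/- mice (8.88% of the genes kept). The methods' analysis of variance at an unadjusted p under 0.01 called 1 of the 6, Cd300lf, for the interaction, and 99 of all genes (0.799%).

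Leaving out each array in turn, with a lone array assumed to vary like the other groups, gave 1 to 3 calls at 24 hr, 4 to 5 at 48 hr, 4 to 6 at 72 hr and 5 to 6 over O3 in Il10-/- mice, 1 to 2 at 48 hr, 2 to 3 at 72 hr and 1 to 3 over O3 in Il10+/+ mice, and between genotypes 0 to 2 at 24 hr and 1 to 2 over O3. The 2 of Il10+/+ mice at 48 hr came without Il10-/- O3 24 hr replicate 1 or 3 or Il10-/- O3 48 hr replicate 1. The share of all genes called in each of these runs is not given here, so the ranges are not particular to the members.

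With the replicate number as a block, 2 members were called at 48 hr in Il10+/+ mice (4.02% of all genes), where Clec4n passed (1.21, adjusted p = 0.0439). For Il10-/- mice the 72-hr change of Clec4d passed (0.90, 0.0447) and the 48-hr change of Clec4e did not (0.64, 0.0715), nor did the 72-hr change of Clec5a for Il10+/+ mice (0.67, 0.052). Arrays of the same number had deviations with a mean r of 0.116 (-0.305 to 0.461), against -0.060 (-0.463 to 0.463) for arrays of other numbers. The 2 ranges overlapped widely, and 21 of 25 arrays correlated best with an array of their own number. In groups of 2 arrays the deviations are mirror images, so these matches are not independent, and no chance level was computed. A pairing of arrays by number is not stated in the labels and was not shown.

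Some values that were not called changed sign. With all 26 arrays Clec7a at 24 hr in Il10-/- mice was -0.13, and the genotype differences at 24 hr were -0.057 for Clec5a and 0.38 for Clec4n. Against air of the same time the Il10+/+ change of Cd300lf at 24 hr was -0.063. In that setting 72 hr was set against air of 48 hr, and the mean over O3 against air of both times. The Il10+/+ changes of Clec4d were then -0.059 at 72 hr and -0.034 over O3. With the covariate the genotype differences were -0.0034 for Clec4e in air, -0.13 for Clec5a at 24 hr and 0.074 for Clec7a at 72 hr, and after centring 0.0013 for Clec5a in air and 0.016 for Clec7a at 72 hr. Leaving out 1 array gave -0.18 to 0.37 for Clec7a and -0.58 to 1.63 for Clec4n at 24 hr in Il10-/- mice. The Il10+/+ changes ranged over -0.055 to 0.097 for Cd300lf at 24 hr, and for Clec4d over -0.043 to 0.29 at 48 hr, -0.0086 to 0.15 at 72 hr and -0.073 to 0.085 over O3. The genotype differences in air ranged over -0.11 to 0.032 for Clec5a, -0.065 to 0.28 for Clec4d and -0.077 to 0.11 for Clec4e. Those at 24 hr ranged over -0.12 to 0.28 for Clec5a and -1.35 to 0.86 for Clec4n, and those of Clec7a over -0.15 to 0.044 at 48 hr and -0.075 to 0.065 at 72 hr. For Clec4n the difference over O3 ranged over -0.26 to 0.47 and the difference in response over -0.18 to 0.55. The cause of these shifts was not tested.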

Other observations

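Of the lists of cells other than myeloid cells, the endothelial list had the most calls over the O3 times. Of 10 endothelial markers, 3 were called lower in Il10-/- mice, the angiopoietin pathway receptor gene Tie1 (-0.60, SE 0.17, adjusted p = 0.032), Pecam1 (-0.41, SE 0.07, adjusted p = 0.000878) and the tight junction gene Cldn5 (-0.24, SE 0.06, adjusted p = 0.0239), and 0 in Il10+/+ mice, and the calls of Tie1 and Cldn5 were lost without any of 7 and any of 3 arrays. The median change of the list was -0.30 in Il10-/- and -0.19 in Il10+/+ mice. Of 9 alveolar type 2 cell markers, Sftpd, a collectin of the airspace and so itself a C-type lectin, was called higher in Il10-/- mice (0.32, SE 0.07, adjusted p = 0.00561) and 0 were in Il10+/+ mice. None of 8 club cell markers, 9 B cell markers and 11 T cell markers passed in either genotype. The B cell markers had a median change of -0.41 in Il10-/- and -0.59 in Il10+/+ mice. Whether any of these changes differed between the genotypes was not shown, since no gene was called for a difference in the mean O3 response.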
